A study of Mus musculus with 5 samples.

Results

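Recently annotated microRNAs that gave a clear signal on arrays of mouse back skin are described here across unwounded and wounded skin. miRNA numbers follow the order of registration, so those from 5000 to 8120 are late entries, and most of them were recorded from sequencing reads. The array carried 1900 mouse miRNAs, of which 781 had such a number and 721 of these had under 69% G+C in their target sequence. A miRNA was kept if the mean scanned intensity of its 2 spots was more than 2 times the level of the array's 4 empty spots, taken as their 95th percentile, on at least 1 of the 5 arrays, which left 70 of the 1900 miRNAs. The members were therefore chosen by the intensities of all 5 arrays, and every level and ratio below describes them and was not tested.

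RNA came from back skin of female mice at the telogen (resting) stage of the hair cycle. Aged skin from 2-year-old animals was collected unwounded (D0) and on days 3, 5 and 7 after a full-thickness 3 mm punch wound (D3, D5, D7), and young skin from 8-week-old animals was collected unwounded. The strain and the number of animals behind each RNA were not given in the sources used here, and young wounds were not analysed. Each of the 5 conditions had 1 array, with no replicate, so a ratio below compares 2 arrays and the 2 spots of a miRNA measure the array alone. In whole skin, fewer cells of a type and less RNA per cell cannot be told apart.

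miRNAs are cut from the arms of an RNA hairpin, and the name ending 5p or 3p gives the arm. Loaded into an Argonaute protein, a miRNA pairs with messenger RNAs mainly through bases 2 to 8, the seed, and lowers the output of the mRNAs it binds. Many hairpins lie in introns of protein-coding genes. Some, called mirtrons, are released by splicing itself. Short fragments of transfer and ribosomal RNA can also be read and registered as miRNAs, and for most late entries no function is established.

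The sequences of the miRNAs that lead the results are shown because the array reports only a name for each. They are the target sequences in the array files, 5′ to 3′, with bases 2 to 8 in capitals. The first set holds those highest on D3.
miR-7221-3p: uGACUGUGggcuggggacugg
miR-7036a-5p: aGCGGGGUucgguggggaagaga
miR-6349: uGGAAUGUgggaggggcaugcg
miR-7011-5p: aGGAGGAUgggagagggaggugu
miR-6925-5p: uGAGGAAGagaaggcuuggacu
miR-7047-5p: uGAGGGAGgagggcugggucuga

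The second set holds those that stood out on D7 and in young skin, together with both arms of miR-6965 and miR-7028, the 2 hairpins that gave 2 members each.
miR-7239-3p: uGGCUCUGucaggcagguag
miR-7081-5p: aGAGGAGGgugcucggccggggauua
miR-6238: uUAUUAGUcaguggaggaaaug
miR-6402: gAGCAGUUuucccaggaacccgc
miR-7056-5p: uGUGGAGGaggacagagagguu
miR-6965-5p: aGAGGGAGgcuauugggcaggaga
miR-6965-3p: uCUGUGCUcggucucgcuccag
miR-7028-5p: uGGGCUGAggcuugggucaggag
miR-7028-3p: cCUUCUCUucccccucggccag

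The third set holds 4 bright members whose targets carry stretches of letters also found in structural RNAs, or that stood out on D5.
miR-6239: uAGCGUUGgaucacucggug
miR-5099: uUAGAUCGauguggugcucc
miR-5112: uAGCUCAGcgggagagcac
miR-5100: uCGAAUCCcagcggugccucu

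The letters UAGCUCAG, from the D arm of transfer RNAs, occurred in 3 of the 1900 targets (0.158%), 1 of them miR-5112. UCGAAUCC, from the T arm, occurred in miR-5100 alone, and GAUCACUCG, from 5.8S ribosomal RNA, in miR-6239 alone (0.0526% each). A match of letters describes the target, and the arrays do not show which RNA the probe captured.

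Of the 70 miRNAs, 58 had a mature entry of the same name in RefSeq (GRCm38.p6), all 58 with the same sequence. miR-5099, miR-5112, miR-5107-5p, miR-6981-5p, miR-6360, miR-6971-5p, miR-6970-5p, miR-6540-5p, miR-7665-5p, miR-6917-5p, miR-6980-5p and miR-6954-5p were without one and are named only. A protein-coding gene contained 50 of the 58 (86.2%), against 1090 of 1610 located targets of the whole array (67.7%) and 126 of 247 located bright miRNAs with a number below 5000 (51.0%). For bright miRNAs of the same number range with at least 69% G+C it was 20 of 24 (83.3%), so the high share is not particular to the 70. The arms of miR-7028 lie in Tchp (chr5:114719515-114719537 and chr5:114719557-114719578, plus strand) and those of miR-6965 in Ccnf (chr17:24240919-24240942 and chr17:24240884-24240905, minus strand). miR-7081-5p lies in Dnmt1, the maintenance DNA methyltransferase (chr9:20914134-20914159, minus strand). miR-7239-3p lies in the long non-coding RNA Gm35624 (chr11:46170124-46170143, plus strand). miR-7221-3p (chr2:92592257-92592277, plus strand) and miR-6349 (chr1:39186908-39186929, minus strand) lie in no other annotated gene.

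G was the commonest base of these targets. Its median share was 45.5% in the 70, against 27.3% in all 1900 and 27.3% in the 651 miRNAs of the same number and G+C range that were not bright. The median share of C was 13.6%, against 22.7% in all, and 60 of the 70 targets held more G than C. A run of 4 G (GGGG) was present in 28 of the 70 (40%), in 205 of all 1900 (10.8%) and in 71 of the 651 that were not bright (10.9%). It was present in 16 of the 25 bright late miRNAs with at least 69% G+C (64%). GGGAGG occurred in 11 of the 70 and in 44 of all targets (2.32%). The 5p arm gave 42 of the 70 (60%) and the 3p arm 12, while 16 names carry no arm. The 5p share was 41.3% over all 1900 and also 60% in the 25 bright late miRNAs with at least 69% G+C. The targets ran from 19 to 26 bases with a median of 22.0.

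The other arm of the hairpin had its own probe for 54 of the 70, and it stayed below the brightness level on all 5 arrays for 50 of them (92.6%). The same share was 88.7% over the 620 such probes of the number range and 80.3% over 1470 probes of the whole array. The exceptions were the 4 arms of miR-6965 and miR-7028. Seeds were nearly as many as members, with 68 different seeds among the 70. miR-6965-5p and miR-7047-5p shared GAGGGAG, and miR-6975-5p and miR-7005-5p shared CUGGGGA. miR-6349 had the same bases 2 to 8 (GGAAUGU) as miR-1a-3p and miR-206-3p, the muscle miRNAs, and miR-6394 had those of miR-125a-5p and miR-125b-5p (CCCUGAG).

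Most members were dim. The mean intensity over the 5 arrays was below 200 for 34 of them, 200 to 500 for 18, 500 to 2000 for 12 and at least 2000 for 6, on a scale whose highest spot reached 61797. The brightness level differed between arrays, at 211 (aged D0), 117 (D3), 122 (D5), 198 (D7) and 214 (young), so a dim miRNA passed most easily on D3 and D5. Members above that level numbered 65 on the D3 array, 45 in young skin, 39 each on D5 and D7, and 25 on aged D0. Of all 1900 miRNAs, 342 were above it on D3, 339 in young skin, 290 on D5, 302 on D7 and 210 on aged D0. All 5 arrays showed 22 members above their level, and 24 members passed on 1 array alone, 20 of these on D3. Just above the limit were miR-6394 at 2.04 times the empty-spot percentile, miR-5622-3p at 2.06 and miR-7665-5p at 2.06. Just below it were miR-6244 at 1.96, miR-6959-5p at 1.94 and miR-6959-3p at 1.93. Detection, set at the 95th percentile itself, held for all 70 members on D3, D5, D7 and young skin and for 63 on aged D0. Of all 1900 miRNAs, 1768 were detected on D3, 1071 on D5, 1559 on D7, 691 in young skin and 589 on aged D0. Brightness on these arrays chose the members, and aged D0 was lowest over all miRNAs too. Nothing is read from the members' counts.

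**Figure D1:**
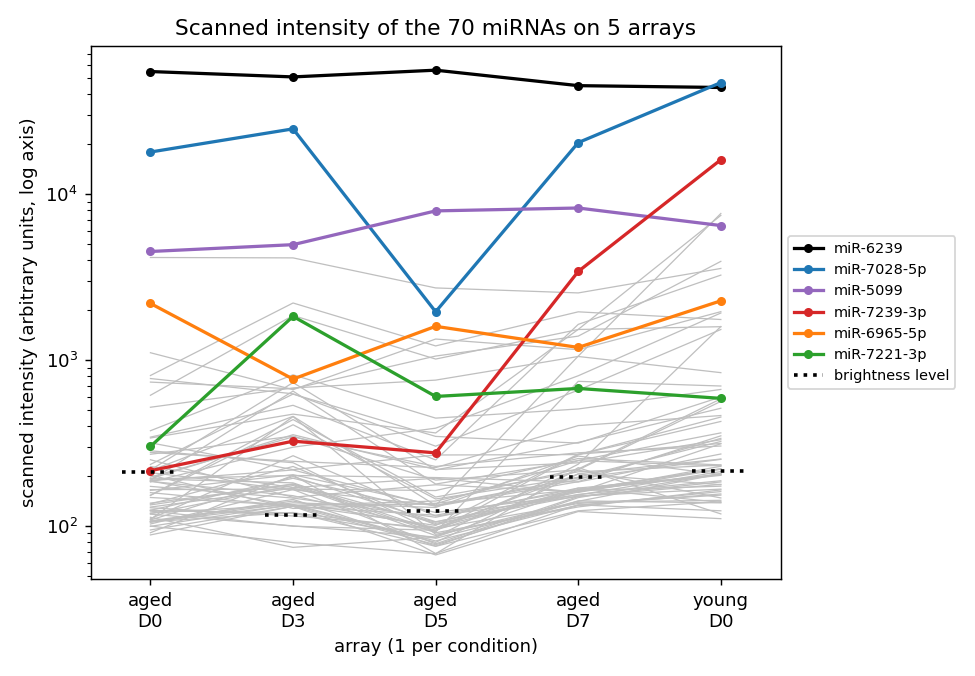
Scanned intensity (arbitrary units, log axis) of the 70 miRNAs on the 5 arrays, with 1 line for each miRNA and a dotted mark at the brightness level of each array. miR-6239 stays between 43785 and 55670, miR-7028-5p drops to 1950 on D5, and miR-7239-3p reaches 3412 on D7 and 16076 in young skin, against at most 324 elsewhere.

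Ratios were taken after quantile normalization, which gives all arrays the same distribution of intensities. All 4 comparisons use the aged D0 array, so they are not independent of each other. On that scale the highest of the 5 levels was on D3 for 34 members, on aged D0 for 12, in young skin for 10, on D7 for 8 and on D5 for 6. The lowest was on D7 for 24 members, in young skin for 19, on aged D0 for 18, on D5 for 6 and on D3 for 3. Highest and lowest level were at least 2-fold apart for 42 members and at least 4-fold apart for 10. On D3 65 members had passed the brightness level, 20 of them on D3 alone, so a highest level there is in part set by the selection. These counts stand without a share over all miRNAs, and nothing is read from them. The 2 spots of the 63 members detected on both arrays gave an SD of a single-spot log2 ratio of 0.31 for D3 over D0, 0.29 for D5, 0.43 for D7 and 0.27 for aged over young skin.

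The brightest member, miR-6239, had intensities of 54625 (aged D0), 50694 (D3), 55670 (D5), 44914 (D7) and 43785 (young). It was the brightest of all 1900 miRNAs on the 4 aged arrays and ranked 3 in young skin. Quantile normalization gives the top rank the same value on every array, so its ratio of 1.0 on each wound day follows from its rank.

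Wounded aged skin on D3 was compared with unwounded aged skin to ask which of these miRNAs differ early after injury. At least 2-fold higher were 13 of the 70, and 1 was at least 2-fold lower, where 3.27% of the 1772 miRNAs detected on either array were higher and 2.65% lower. The median ratio of the 63 members detected on both arrays was 1.28, against 0.900 for all 585 such miRNAs, 1.79 for the 25 bright late miRNAs with at least 69% G+C and 0.808 for 278 bright miRNAs with a number below 5000. Of the 304 bright miRNAs with a number below 5000, 10.9% were at least 2-fold higher and 14.8% lower. The intensities that chose the members include those of D3, so nothing is read from these counts. The split depended on the scaling: with arrays scaled to the spiked-in calibration oligonucleotides, 4 members were higher and 8 lower, and the median of all 585 miRNAs moved from 0.900 to 0.499 and that of the members from 1.28 to 0.816. Relative to the median of all bright miRNAs, the members' median was 1.43 times as high after quantile normalization and 1.41 times as high under that scaling. Spike scaling moves all miRNAs of an array by the same factor, so it cannot change this value, which was 1.41 without scaling too. As the D3 intensities helped choose the members, nothing is read from it.

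miR-7221-3p had intensities of 301 on aged D0, 1829 on D3, 602 on D5, 673 on D7 and 587 in young skin. Its normalized D3 level was 5.79 times the D0 level, with 6.21 and 5.40 from the 2 spots. It was thus highest on D3. On D5 it was 2.20-fold above D0, and over the alternatives that ratio ran from 1.53 under spike scaling to 2.85.

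miR-7036a-5p had 109 on aged D0, 455 on D3, 89.0 on D5, 133 on D7 and 161 in young skin. Its D3 ratio was 5.49 (spots 5.31 and 5.68). Its D0 value lay near the detection level of that array (105), and its ratio ran from 2.74 to 20.7 over the alternatives. miR-6349 had 188, 649, 179, 248 and 363 in the same order of arrays, a D3 ratio of 3.61 (spots 3.42 and 3.81). The summed intensity of 4 muscle miRNAs, 2 of which share its bases 2 to 8, went the other way on D3, from 32805 to 6780.

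miR-7011-5p had 217 on aged D0 and 730 on D3, against 218 on D5, 318 on D7 and 511 in young skin, and a D3 ratio of 3.36. miR-6925-5p had 110 and 265 on those 2 aged arrays, with 115, 150 and 184 on the others, and a D3 ratio of 3.17. By scanned values both were high on D3 and near D0 again on D5. The detection level, however, was 105 on aged D0 and 61.1 on D5. After normalization the D5 ratio was 1.07 for miR-7011-5p and 1.61 for miR-6925-5p. Over the alternatives the D3 ratio of miR-7221-3p ran from 3.97 to 9.15, that of miR-6349 from 2.26 to 5.16 and that of miR-7011-5p from 2.20 to 4.35. That of miR-6925-5p, whose D0 value was also near the detection level, ran from 1.58 under spike scaling to 10.1. miR-7047-5p (2.93), miR-5119 (2.93), miR-6937-5p (2.76), miR-7118-5p (2.69), miR-6981-5p (2.51) and miR-6418-5p (2.37, spots 1.72 and 3.29) were higher too. The other 2 of the 13, miR-6917-5p and miR-6942-5p, were not detected on D0 and were counted by a limit that holds on the quantile-normalized scale only. miR-6917-5p had scanned values of 91.0 on aged D0 and 202 on D3, and its ratio ran from 1.52 to 39.7 over the alternatives. miR-6942-5p had 103 and 166, and its ratio ran from 1.07 to 9.99. Neither is a firm 2-fold difference.

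miR-6965-5p was the single member at least 2-fold lower on D3. Its intensities were 2189 on aged D0, 767 on D3, 1593 on D5, 1189 on D7 and 2270 in young skin. The normalized ratio was 0.40 on D3 (spots 0.41 and 0.39), 1.09 on D5 and 0.41 on D7. miR-7047-5p, with the same seed, moved in the opposite direction on D3, from 612 to 1852.

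**Figure D2:**
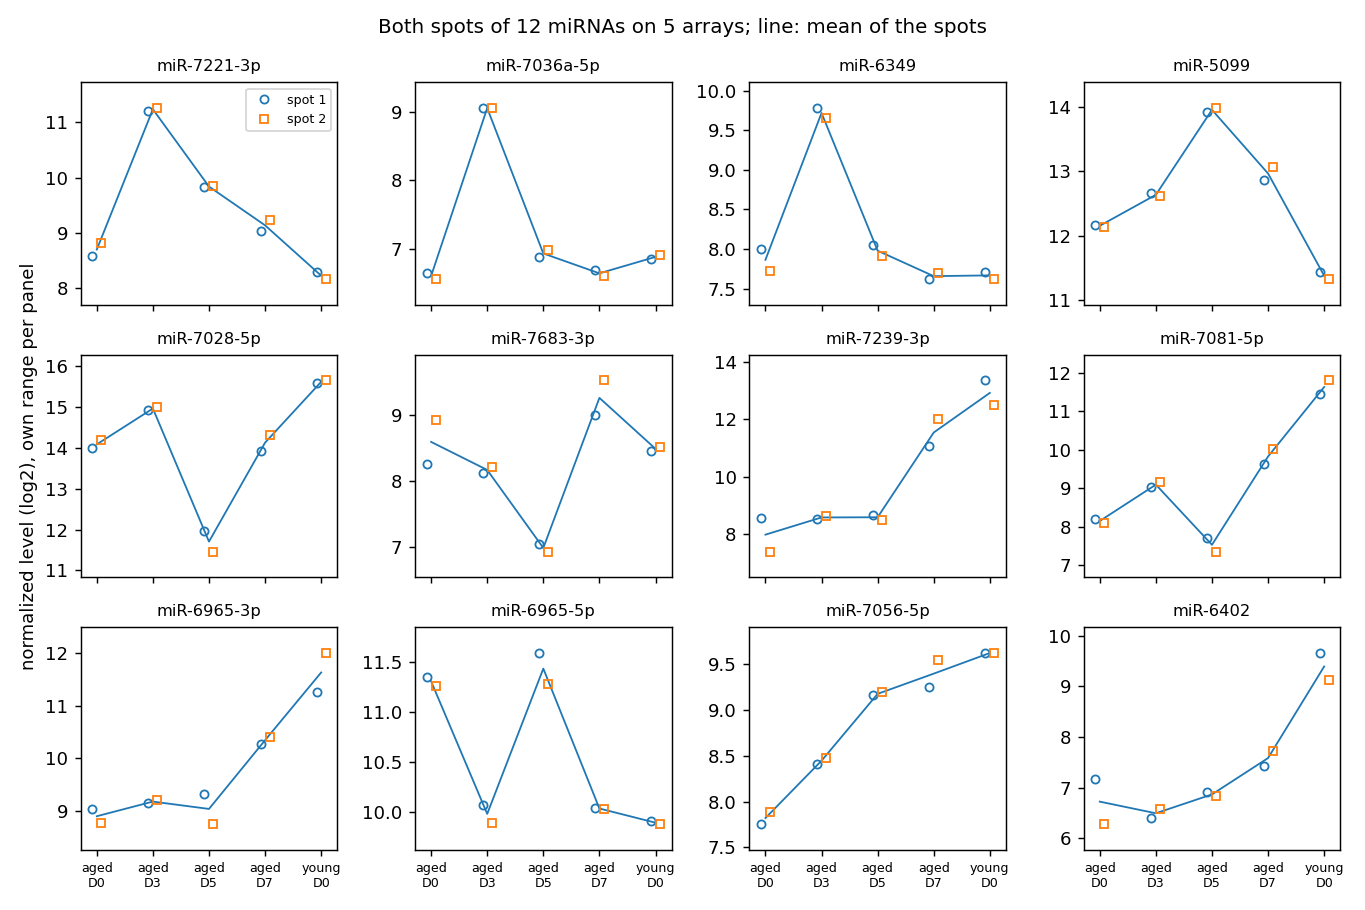
Normalized level (log2, own range in each panel) of 12 miRNAs on the 5 arrays, with circles and squares for the 2 spots and a line through their mean. miR-7221-3p, miR-7036a-5p and miR-6349 peak on D3, miR-7028-5p and miR-7683-3p are lowest on D5, and both spots of miR-7239-3p are highest in young skin.

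The D3 ratio is given next by the G content of the target, over the 63 members detected on both arrays. These intensities chose the members, 20 of which passed on D3 alone, so the values are a description. Members with under 40% G had a median D3 ratio of 1.03 (n = 20), those with 40 to 50% G 1.5 (n = 22) and those with at least 50% G 1.84 (n = 21). Of these groups 1, 3 and 7 miRNAs were at least 2-fold higher. Pearson's r between G share and log2 ratio was 0.40 over the 63 members on D3, and -0.08 on D5, -0.07 on D7 and -0.03 for aged over young skin. These points share the same pair of arrays, and r is given as a description. For the total of G and C the D3 value was 0.19. The 278 bright miRNAs with a number below 5000 had D3 values of 0.30 for G and 0.34 for G and C together. Members with GGGG had a median D3 ratio of 1.69 (n = 23) and those without it 1.2 (n = 40). Over all miRNAs of the array the same medians were 1.23 (n = 100) and 0.880 (n = 485). The part of base composition in the D3 ratios was not tested.

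**Figure D3:**
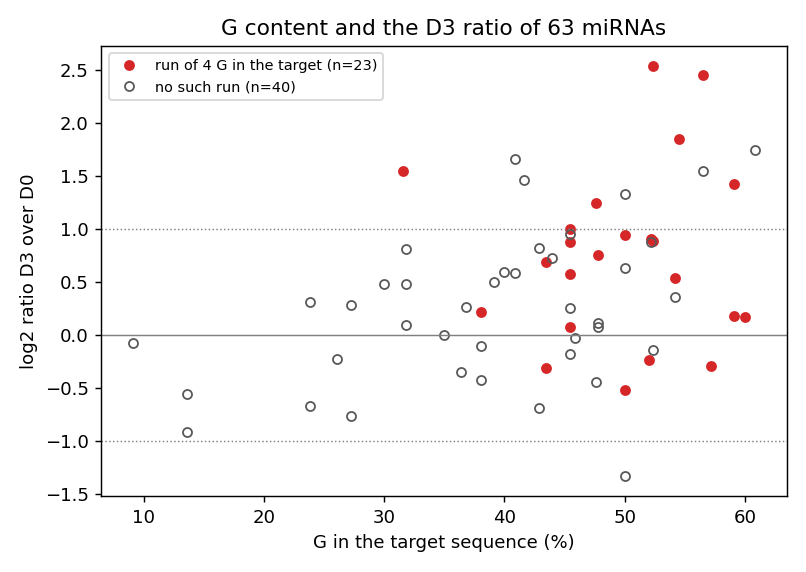
Share of G in the target sequence (%) against the log2 ratio of D3 over aged D0 for the 63 miRNAs detected on both arrays, with filled points for targets holding a run of 4 G. Below 40% G the median ratio is 1.03, and at 50% G or more it is 1.84.

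Being highest on D3 was not particular to the 70. At least 1.5-fold above every other array on D3 were 16 of the 70 (22.9%), 10 of the 25 bright late miRNAs with at least 69% G+C (40%) and 23 of the 304 bright miRNAs with a number below 5000 (7.57%). Each list was chosen by brightness on these arrays, and D3 had the lowest brightness level. The share over all miRNAs was not taken, so nothing is read from how the lists differ.

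On D5 fewer members differed from unwounded aged skin. At least 2-fold higher were miR-5099, miR-7056-5p and miR-7221-3p, and at least 2-fold lower were miR-7028-5p, miR-7683-3p and miR-7033-5p, so 3 of 70 in each direction, where 2.69% of the 1079 miRNAs detected on either array were higher and 2.41% lower. Among bright miRNAs with a number below 5000, 7.26% were higher and 7.26% lower, so the members' counts are not an excess over bright miRNAs. The median ratio of the members was 1.08, against 0.955 for all 581 miRNAs detected on both. Scaled to the spiked-in oligonucleotides, none was higher and 7 were lower, and with cyclic loess 6 were higher and 3 lower. The members' median ran from 0.655 to 1.17 over the alternatives.

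miR-7028-5p, the second brightest member, had intensities of 17885 on aged D0, 24661 on D3, 1950 on D5, 20382 on D7 and 46862 in young skin. D5 stood apart from the other 4 arrays, with a ratio of 0.19 to D0 (spots 0.24 and 0.15), and the ratio lay between 0.0808 and 0.249 under the alternatives. The other arm, miR-7028-3p, had 228, 170, 194, 159 and 219 in the same order and showed no such drop, with a D5 ratio of 0.88. miR-7683-3p had 283, 240, 91.8, 743 and 696, with a D5 ratio of 0.33 (spots 0.43 and 0.25).

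miR-7033-5p had 772 on aged D0 and 302 on D5, a ratio of 0.42, with 625 on D3, 658 on D7 and 1525 in young skin. miR-7081-5p and miR-6990-5p joined miR-7028-5p and miR-7683-3p as the 4 members at least 1.5-fold lower on D5 than on each of the other 4 arrays (5.71%). Among the 304 bright miRNAs with a number below 5000 this held for 5 (1.64%), and among the 25 bright late miRNAs with at least 69% G+C for none. At 2-fold it held for 2 of the 70 and 1 of the 304. The lists were chosen by brightness on the same arrays and the share over all miRNAs was not taken, so nothing is read from these counts.

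miR-5099 was highest on D5 after normalization and next to D7 before it, with 4500 on aged D0, 4947 on D3, 7904 on D5, 8226 on D7 and 6449 in young skin. Its normalized D5 ratio was 3.49 and the ratio of the scanned values 1.76. The alternatives ran from 1.32 to 3.61. miR-7056-5p had 184, 298, 388, 803 and 1917, lowest on aged D0 and higher on each later day. Its ratio to D0 was 1.54 on the D3 array, 2.57 on the D5 array and 2.99 on the D7 array.

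On D7 members at least 2-fold higher and lower were equal in number, 6 of 70 each, where 2.30% of the 1565 miRNAs detected on either array were higher and 1.73% lower. Among bright miRNAs with a number below 5000 the shares were 9.87% higher and 6.58% lower, near the members' 8.57% each way. The median ratio of the members was 0.942, and that of all 583 miRNAs detected on both arrays 0.885. The members' median ran from 0.764 to 1.24 over the alternatives. It too moved with the scaling: without any scaling between arrays 12 members were higher and none lower, and scaling at the 75th percentile left 5 higher and 8 lower. The higher ones were miR-7239-3p, miR-7081-5p, miR-7056-5p, miR-6238, miR-6965-3p and miR-6540-5p.

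miR-7239-3p had intensities of 215 on aged D0, 324 on D3, 275 on D5, 3412 on D7 and 16076 in young skin. Its 2 spots gave D7 ratios of 5.56 and 24.8 around a mean of 11.7, and they were the most unlike pair among the 70 on aged D0 (1.91-fold apart), on D7 (1.86-fold) and in young skin (1.76-fold). D7 and young skin were nevertheless above the other arrays on both spots. miR-7081-5p had 215, 457, 133, 1055 and 7624, with a D7 ratio of 3.19 (spots 2.71 and 3.76).

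miR-6238 had 343 on aged D0, 533 on D3, 250 on D5, 1637 on D7 and 3243 in young skin, and a D7 ratio of 2.86. miR-6965-3p had 339, 471, 363, 1527 and 7427, and a D7 ratio of 2.72. Both kept the same order as miR-7239-3p, with young skin first and D7 next. miR-6540-5p had a ratio of 2.25, with 1.59 and 3.17 from its spots.

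The members at least 2-fold lower on D7 were miR-7022-3p (0.37), miR-7028-3p (0.41), miR-6965-5p (0.41), miR-7070-5p (0.45), miR-6971-5p (0.48) and miR-6348 (0.50). Apart from miR-6965-5p these were dim. miR-7022-3p, for example, had 250 on aged D0, 149 on D3, 177 on D5, 160 on D7 and 313 in young skin. Without scaling between arrays no member was 2-fold lower, and the median intensity of all miRNAs was 95.8 on aged D0 and 110 on D7.

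**Figure D4:**
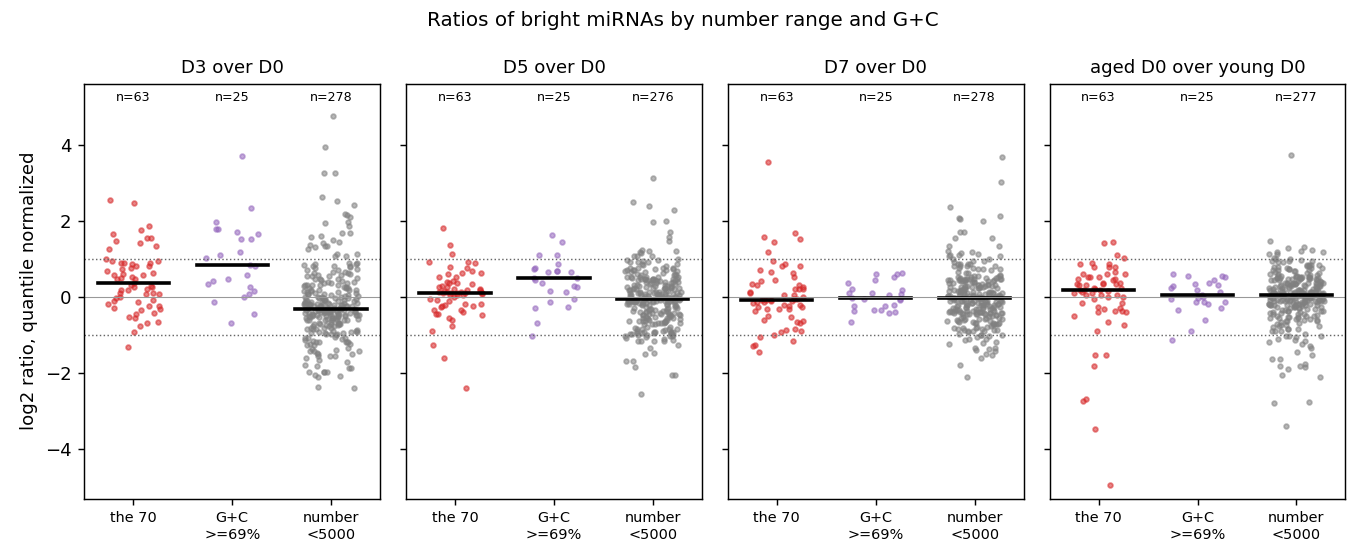
log2 ratios after quantile normalization in the 4 comparisons for the 70 miRNAs, for the 25 bright late miRNAs with at least 69% G+C and for the 304 bright miRNAs with a number below 5000, each detected on both arrays (n above the points). Thick bars are medians and dotted lines mark 2-fold. The median of the 70 is 1.28 on D3 and between 0.942 and 1.13 in the other comparisons, and in aged over young skin a few members lie far below the rest.

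Unwounded aged and young skin were compared to ask how these miRNAs differ with age before injury. At least 2-fold higher in aged skin were 4 of the 70 (miR-5112, miR-6965-5p, miR-7028-3p and miR-7070-5p) and 7 were at least 2-fold lower, where 2.31% of the 779 miRNAs detected on either array were higher and 5.26% lower. Among bright miRNAs with a number below 5000 the shares were 4.61% higher and 10.9% lower. The 7 lower members are thus not an excess over bright miRNAs. The median ratio of the members was 1.13, against 1.05 for all 501 miRNAs detected on both. The scaling sets this split as well: at the 75th percentile 33 members were higher and 6 lower, and without scaling none was higher and 19 were lower. The members' median ran from 0.608 to 2.03.

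The 7 lower in aged skin were miR-7239-3p, miR-7081-5p, miR-6965-3p, miR-6402, miR-7056-5p, miR-7028-5p and miR-6238. miR-7239-3p was 30.5-fold lower, miR-7081-5p 11.2-fold, miR-6965-3p 6.65-fold and miR-6402 6.37-fold. Over the alternatives these folds ran from 22.8 to 76.1, from 9.59 to 35.5, from 4.69 to 21.5 and from 4.21 to 35.01. miR-6402 had 113 on aged D0, near the detection level of that array (105), with 74.2 on D3, 85.4 on D5, 235 on D7 and 1589 in young skin. These 4 and miR-6238 were the members at least 1.5-fold higher on both D7 and the young array than on aged D0, D3 and D5 (7.14% of the 70). Of the 304 bright miRNAs with a number below 5000, 14 had that pattern (4.61%), and of the 25 with at least 69% G+C none had it. Here too the lists were chosen by brightness on the same arrays, so nothing is read from these shares.

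A pair of hybridization controls that carry mismatches to their oligonucleotide were also brightest in young skin. The first read 308, 519, 793, 750 and 1271 in the order aged D0, D3, D5, D7 and young, while its perfectly matched partner read 54324, 49940, 53144, 46566 and 45292. The second read 114, 229, 217, 244 and 424, and its matched partner 17955, 31300, 30527, 22657 and 20024. The part of hybridization in the young values was not tested. The summed scanned intensity of the muscle miRNAs was higher in young skin (64973) than on aged D0 (32805) or D7 (15455). Their normalized aged over young ratios, however, ran from 0.69 to 1.08. The scanned sum of 5 leukocyte miRNAs was 901 on aged D0, 4071 on D3, 2389 on D5, 4172 on D7 and 5829 in young skin. miR-223-3p gave 2804 of that D3 sum, while miR-150-5p went from 372 on aged D0 to 335. Normalized aged over young ratios of these 5 ran from 0.21 to 0.77. The scanned sum of 3 fibroblast miRNAs was 7542 on aged D0, 4688 on D3, 7046 on D5, 17035 on D7 and 17132 in young skin. After normalization their aged over young ratios were 1.04, 1.03 and 1.38, so they were not higher in young skin on that scale. Their normalized D7 ratios to D0 were 2.17, 2.94 and 1.38. All 7 miRNAs listed for epithelium were detected on all 5 arrays, with scanned sums of 38489, 16244, 17340, 27476 and 46538. They did not move together: on D3 miR-200c-3p was 2.10-fold higher than on aged D0, while 5 of the 7 were at least 2-fold lower. Their normalized aged over young ratios ran from 0.73 to 2.27. For 3 erythroid miRNAs the scanned sums were 2034, 982, 1284, 1178 and 2496 in the same order of arrays. Normalized aged over young ratios were 2.28 for miR-451a, 2.00 for miR-486a-5p and 1.10 for miR-144-3p, which was detected on 1 array only. On D7 the ratios to D0 were 0.44, 0.23 and 0.97 in that order. The part of cell content in the members' ratios was not tested.

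Of those higher in aged skin, miR-5112 had scanned values of 4141 in aged and 3556 in young skin, and a normalized ratio of 2.74 against 1.16 for the scanned values. miR-6965-5p had 2189 and 2270, and a normalized ratio of 2.67, which turned to 0.967 when no scaling between arrays was applied. The first kept its direction under every alternative (1.18 to 3.92) and the second has no settled direction here. The arms of miR-6965 thus differed in their course on the arrays: the 3p arm was 4.51-fold higher on D7 than on aged D0 by scanned values, and the 5p arm had a scanned ratio of 0.543.

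**Figure D5:**
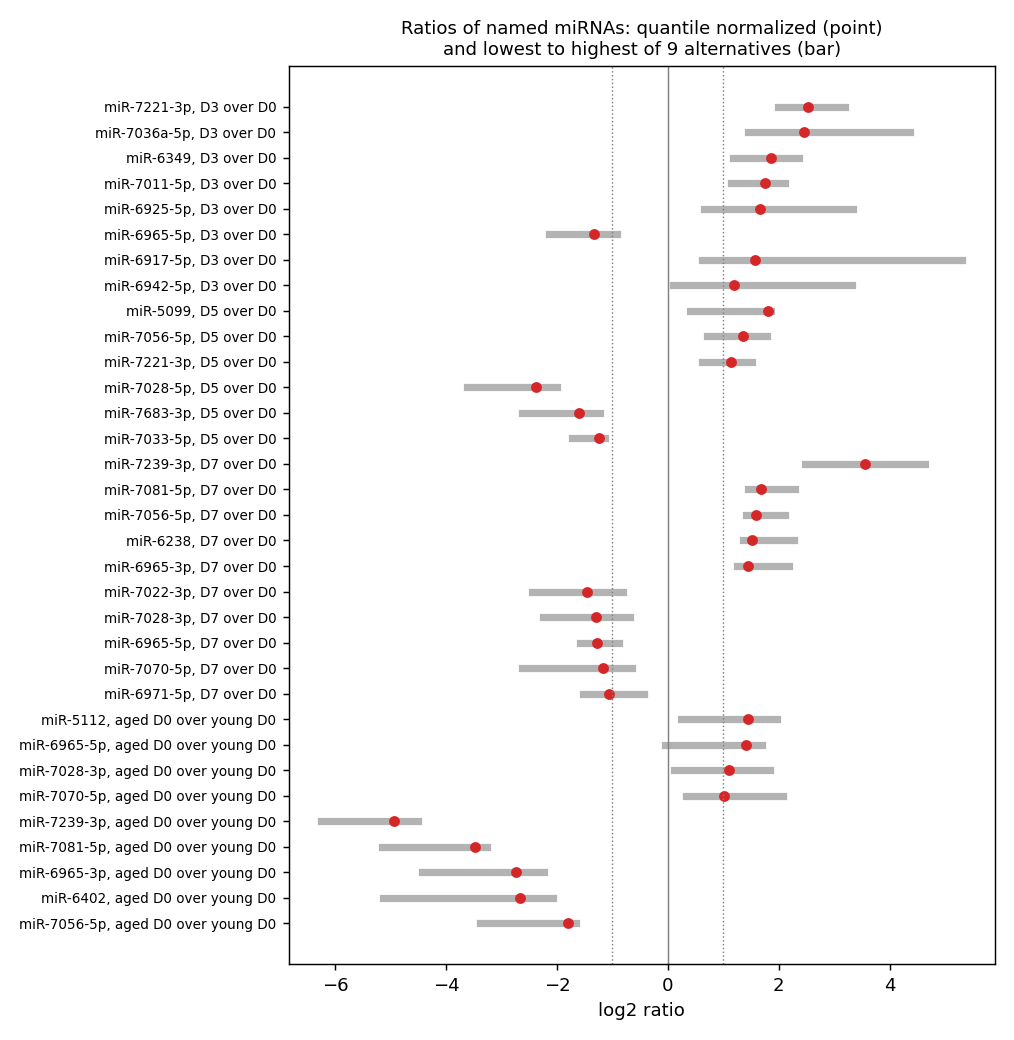
log2 ratios of the named miRNAs after quantile normalization (points) with the lowest to highest value of 9 alternatives (bars), solid line at no difference and dotted lines at 2-fold. The bar of miR-6965-5p in aged over young skin crosses the solid line, and those of miR-7239-3p, miR-7028-5p and miR-7221-3p on D3 stay beyond 2-fold.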

How the data were processed

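Total RNA (0.5 µg) was hybridized to single-colour arrays by a service provider. The authors deposited scanner files with spot intensity (the median over a spot's pixels, linear and unscaled, background columns empty) and a table of processed intensity, also linear, whose method is not given in the sources used here. Scanner and image software were likewise not given. All spots were background corrected with normexp (offset 50) in limma 3.58.1 (R 4.3.3). Controls were left out, log2 values were quantile normalized over the 5 arrays and the 2 spots averaged. A miRNA not detected on 1 array of a comparison is given as a limit against the lowest detected level. With 1 array per condition no test was possible, and the number of arrays limits precision. The members, the lists and the letters searched were chosen with earlier results of these data known. Named miRNAs were the 5 largest 2-fold rises and falls per comparison seen on both spots, the 8 brightest, those sharing a seed or a hairpin, the 3 on each side of the brightness limit, and any count of 5 or fewer. Others named beside a count were picked after their values were seen. Normalization and ratios were tested on simulated arrays, all built from the aged D0 array, with known changes in bright miRNAs only. That does not cover dim members or arrays of unlike background. Alternatives changed scaling, background, spots, threshold and source table.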

Additional observations from a re-analysis of the deposited data

How the results depend on the processing

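Over 11 alternatives, 55 of 88 counts of members at least 2-fold higher or lower stayed within 1.5 times the value after quantile normalization, and 33 did not. Counts follow as higher and lower. On D3 (13 and 1) scaling to the spiked-in oligonucleotides gave 4 and 8, subtraction of the empty spots 31 and 3, the authors' processed values 34 and 2, the first spot alone 14 and 2, and the second 22 and 1. On D5 (3 and 3) the same spike scaling gave 0 and 7, empty-spot subtraction 15 and 5, the authors' values 14 and 5, cyclic loess 6 and 3, and the second spot 5 and 4. On D7 (6 and 6) no scaling gave 12 and 0, spike scaling 13 and 0, empty-spot subtraction 19 and 13, the authors' values 18 and 12, and cyclic loess 5 and 3. For aged over young skin (4 and 7) no scaling gave 0 and 19, the 75th percentile 33 and 6, spike scaling 0 and 12, empty-spot subtraction 8 and 21, and the authors' values 6 and 18. Of 297 alternative values of 33 named ratios, 1 changed direction: miR-6965-5p in aged over young skin, at 0.967 without scaling. Leaving out the 66 values from single spots, which lie within the spread of the spots by construction, 83 moved by less than that spread and 147 by more. Subtracting the empty spots leaves dim miRNAs near 0, where ratios grow, and 34 of the 70 had a mean intensity below 200. The other causes were not tested. No paired analysis was possible because the conditions were run on single arrays.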
